A study of Mus musculus with 8 samples.

Results

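The genes described here encode the proteins of the cytosolic ribosome, measured by RNA-seq in classical (Ly6C+) monocytes from mouse bone marrow. They were chosen by name, as symbols starting Rpl or Rps followed by a number, together with Rpsa, Rplp0, Rplp1 and Rplp2, with S6 kinase genes and genes named as pseudogenes (-ps) left out. The name rule found 86 genes, and 85 of them had a mean of at least 0 on the log2 scale described below, out of 12752 genes that passed the same minimum. Rpl3l, with a mean of -0.22, lay just outside it, and Rps10 (1.06) and Rpl24 (1.70) lay just inside. The 85 comprised 46 genes of the large subunit, 31 of the small subunit, 3 paralogs (Rpl22l1, Rpl7l1 and Rps27l) and 5 genes that the deposited table itself classes as pseudogenes although their names fit the rule (Rps4l, Rpl6l, Rps3a2, Rps3a3 and Rpl32l).

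The study compared monocytes of wild type, Bcl6 cKO, Irf2 KO and Nr4a1 KO mice, with 2 libraries per genotype and 8 in all. Bcl6, Irf2 and Nr4a1 are transcription factors, and per the title the study concerns the step from classical to nonclassical monocytes. The Cre line behind the Bcl6 cKO, strain, age, sex and batch are not stated in the labels, nor whether the 2 libraries of a genotype came from separate mice, so p-values measure only the spread between libraries, which may be technical. Levels are log2 CPM, the log2 of reads per 1e6 of a library total that the authors had scaled. The reads of the genes in the deposited table summed to 46617756 to 62633123 per library, and 1 CPM equalled 47.9 to 61.8 reads. A gene was called higher or lower where its adjusted p from limma, over all 12752 genes of that comparison, was under 0.05.

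The 10 classical monocyte markers (among them Ly6c2, Ccr2 and Csf1r) were present in every library, at 4.48 to 14.74 log2 CPM. Nr4a1 was lower in the Nr4a1 KO libraries by limma (log2 change -2.31, adjusted p = 0.000622) and Irf2 in the Irf2 KO libraries (-0.56, adjusted p = 0.0222). The fall of Nr4a1 was not particular to its own knockout: it was -2.41 in Irf2 KO (adjusted p = 0.00163), where Bcl6 fell too (-1.07, adjusted p = 0.00382). Bcl6 went against its label: it was 4.66 and 4.64 log2 CPM in wild type and 6.53 and 6.40 with the label Bcl6 cKO (1.81, adjusted p = 0.00233 by limma). Reads over a whole gene do not check the deletion of one of its parts, so these 2 are called libraries labelled Bcl6 cKO throughout.

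Ribosomal proteins assemble with ribosomal RNA into a small subunit, which decodes mRNA, and a large subunit, which joins amino acids. Their mRNAs are among the most abundant of a cell, and most begin at a C within a run of pyrimidines, the terminal oligopyrimidine (TOP) motif, through which mTORC1 and the RNA-binding protein Larp1 control their translation. The genes also gave rise to many processed pseudogenes, whose near-identical sequence makes short reads hard to place.

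The promoters below are shown because these genes carry the changes described later. Each line gives 40 bases before and 20 bases after the RefSeq start of the gene, on its own strand in GRCm38.p6, 5′ to 3′. Capitals mark the longest run of pyrimidines (C or T) that reaches within 20 bases of the start, or the first where several are equally long, as in Rpl22 and Rps27l.
Rpl14 (chr9:120571477-120571536, plus strand): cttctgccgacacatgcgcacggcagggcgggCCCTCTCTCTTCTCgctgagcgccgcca
Rpl38 (chr11:114668540-114668599, plus strand): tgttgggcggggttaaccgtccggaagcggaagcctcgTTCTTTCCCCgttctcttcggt
Rpl35 (chr2:39005112-39005171, minus strand): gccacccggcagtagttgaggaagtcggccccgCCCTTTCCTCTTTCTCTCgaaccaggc
Rpl22 (chr4:152325686-152325745, plus strand): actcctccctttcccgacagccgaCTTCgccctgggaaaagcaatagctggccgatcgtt
Rps27l (chr9:66946046-66946105, plus strand): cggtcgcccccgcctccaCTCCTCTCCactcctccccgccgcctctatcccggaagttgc
Rplp2 (chr7:141447611-141447670, plus strand): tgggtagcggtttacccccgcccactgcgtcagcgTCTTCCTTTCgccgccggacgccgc
The run was 18 bases in Rpl35, 14 in Rpl14, 10 in Rpl38 and Rplp2, 9 in Rps27l and 4 in Rpl22. For each gene the RefSeq start nearest to its start in the annotation GENCODE M21 was used. It lay 493 bases from the latter in Rpl35, 281 in Rplp2, 141 in Rpl22, 73 in Rpl14, 29 in Rpl38 and 0 in Rps27l. Which start the monocytes use was not tested.

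RefSeq promoters matched 60 of the 80 ribosomal protein genes classed as protein-coding. The median longest pyrimidine run was 9.0 bases in these 60 and 5.0 bases in the 8345 tested protein-coding genes with a promoter. A run of at least 8 bases near the start was found in 31 of the 60 (51.7%), against 19.4% of the 8345. A start at C with at least 5 pyrimidines in a row was found in 12 (20.0%), against 2.24%. Other motifs were searched on both strands of the full promoter windows, each from before to after the start. The ETS core CCGGAAG stood in 24 of the 60 (and in 21.2% of the 8345), the YY1 core AAGATGGC in 5 (8.33% against 5.46%), the GC box GGGCGG in 37 (61.7% against 66.2%) and TATAAA in 6 (10.0% against 6.78%). A match describes the letters of these windows only.

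Shares here are of the reads over the 13744 genes of the deposited table. The 85 genes held 7.16% and 7.43% in the wild type libraries and 9.21% and 8.94% in the Irf2 KO libraries. The Nr4a1 KO libraries held 8.64% and 8.40%, and the libraries labelled Bcl6 cKO held 7.45% and 8.20%. All 6 mutant libraries therefore lay above both wild type libraries, and both Irf2 KO libraries lay above all others. An exact permutation test of 2 libraries against 2 cannot give a two-sided p below 0.333, and the share was given no other test. In these bulk samples, more RNA per cell cannot be told apart from a different mix of cells.

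**Figure D1:**
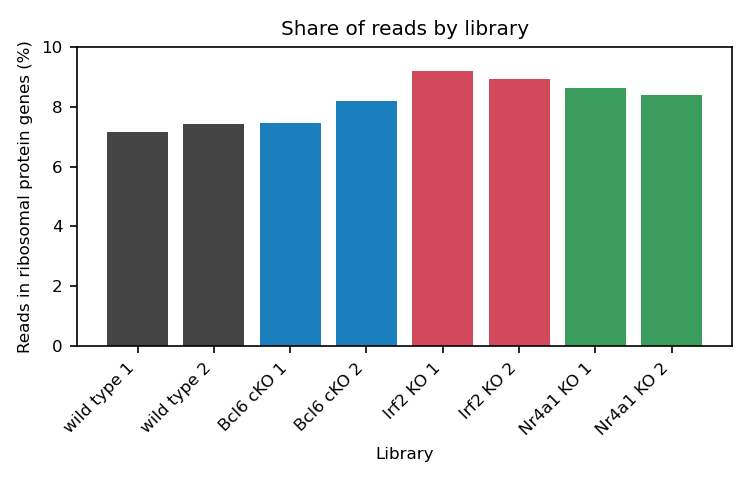
Percent of each library's reads over the genes of the deposited table (y axis) that fell in the 85 ribosomal protein genes, by library (x axis). Each library has 1 bar, coloured by genotype. The bars run from 7.16% in wild type 1 to 9.21% in Irf2 KO 1.

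Across the 4 genotypes, 42 of the 85 genes (49.4%) differed by limma's moderated F test, against 28.2% of all genes tested. That count was 16 to 40 with 1 library left out (16 and 17 without an Irf2 KO library, 19 and 26 without a wild type library), 9 without the variance trend, 21 after correction for GC and length and 69 after median centring. The wild type mean was the lowest of the 4 in 72 genes, and the Irf2 KO mean was the highest in 71 and the lowest in 0. Levels per kb of transcript in wild type were highest in Rps29 (11.76 log2 CPM per kb) and Rps19 (11.71), both of the small subunit. The lowest subunit genes were Rps10 (1.21), Rpl24 (1.92) and Rpl13a (4.55), on the same per-kb scale. No source used here says how reads were split between similar genes, and its part in these low levels was not tested.

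**Figure D2:**
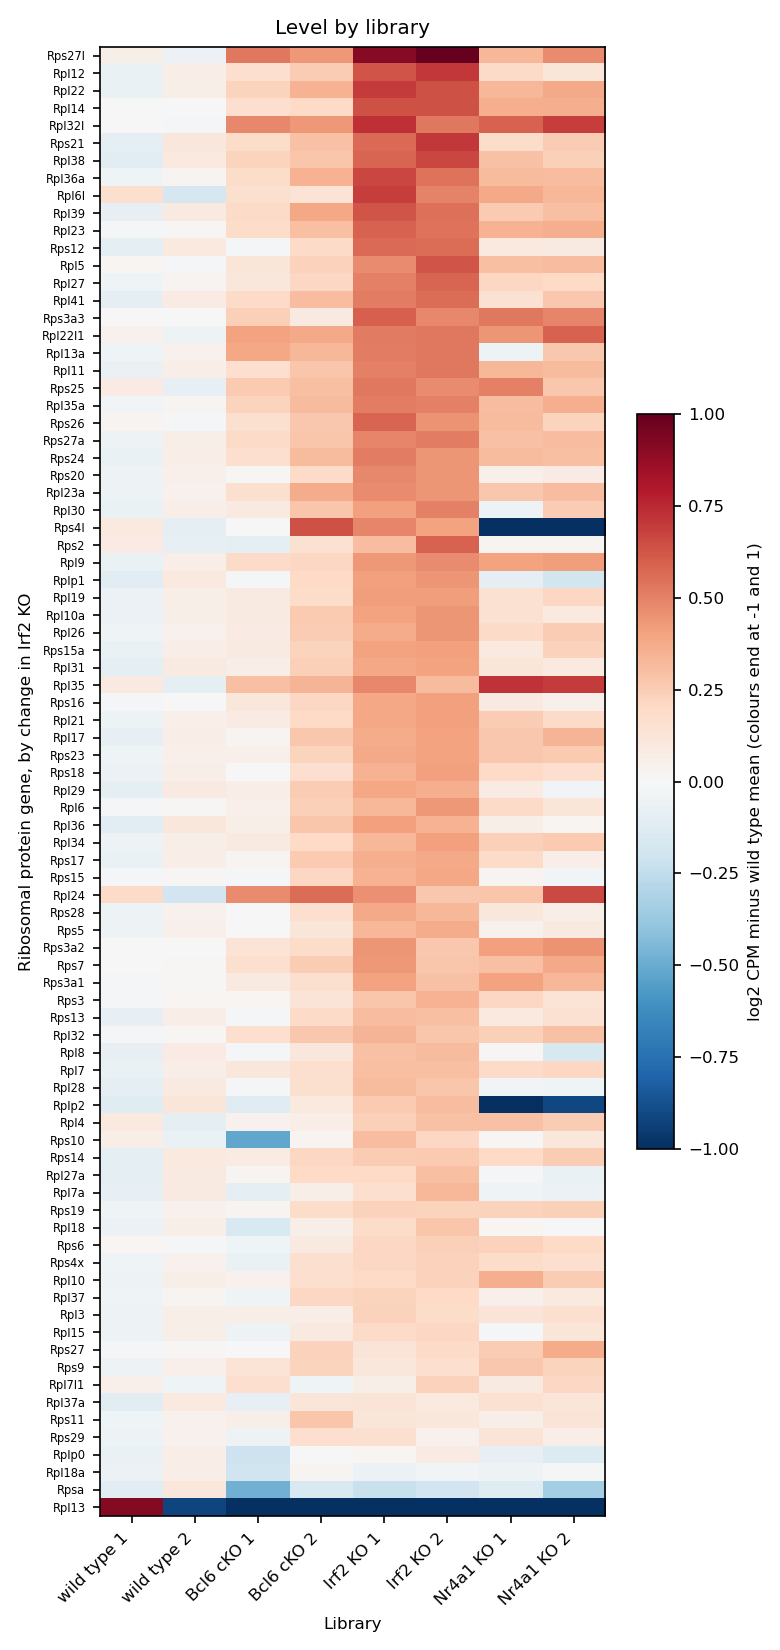
Log2 CPM of the ribosomal protein genes shown (rows, ordered by the change in Irf2 KO) in each library (columns), minus the gene's wild type mean, with colours ending at -1 and 1. The Irf2 KO columns are red in nearly all rows, and Rpl13, Rplp2 and Rps4l stand out in blue.

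Loss of Irf2 went with higher levels of most ribosomal protein mRNAs, by a modest amount. By limma, 55 of 85 genes (64.7%) were higher than wild type, against 9.26% of all genes tested, and 0 were lower, against 12.3%. The median change of the 85 was 0.38 log2 (1.3-fold), with quartiles of 0.26 and 0.51, where that of all genes was -0.04. Both subunits took part: 30 of 46 large subunit genes (median 0.39) and 20 of 31 small subunit genes (median 0.36) rose. In 80 of 85 genes both Irf2 KO libraries lay above both wild type libraries, as they did in 30.1% of all genes.

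The largest rise in Irf2 KO belonged to Rps27l, a paralog of Rps27 that is known as a p53 target. Its level was 7.88 and 7.76 log2 CPM in wild type and 8.73 and 8.87 in Irf2 KO, a 1.97-fold rise (log2 change 0.98 ± 0.10 SE, adjusted p = 0.00135), and 0.60 log2 after a correction of each library for GC and length (adjusted p = 0.00533). Rps27 itself (9.44 and 9.47 in wild type, 9.59 and 9.65 in Irf2 KO) did not pass the test (0.16 ± 0.10, adjusted p = 0.273), and its change was -0.25 after the same correction. Rpl14, a large subunit protein, stood at 10.42 log2 CPM in both wild type libraries and at 11.06 in both Irf2 KO libraries (0.64 ± 0.08, adjusted p = 0.00219). Rpl12, a protein at the base of the stalk, was 8.03 and 8.17 in wild type and 8.73 and 8.81 in Irf2 KO (0.67 ± 0.09, adjusted p = 0.00294). Rpl38, known for its part in the translation of Hox mRNAs, rose from 8.55 and 8.76 to 9.24 and 9.33 (0.63 ± 0.10, adjusted p = 0.0044). In each of these risers the groups did not overlap.

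Rpl22 and Rpl22l1 are paralogs that can replace each other in the ribosome. Rpl22 was 8.01 and 8.14 log2 CPM in wild type and 8.78 and 8.72 in Irf2 KO (0.67 ± 0.09, adjusted p = 0.00297). Rpl22l1, at a lower level, was 5.75 and 5.66 in wild type and 6.23 and 6.24 in Irf2 KO (0.53 ± 0.10, adjusted p = 0.0104). Both members of the pair therefore rose in Irf2 KO. Of the other pair with a tested paralog among the coding genes, Rpl7 rose (0.30, adjusted p = 0.0379) and Rpl7l1 gave 0.14 (adjusted p = 0.39).

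Rpl5 and Rpl11 bind the 5S ribosomal RNA and, outside the ribosome, inhibit Mdm2. Rpl5 was 9.21 and 9.17 log2 CPM in wild type and 9.66 and 9.82 in Irf2 KO (0.55 ± 0.09, adjusted p = 0.0054). Rpl11 was 9.10 and 9.24 in wild type and 9.67 and 9.70 in Irf2 KO (0.51 ± 0.09, adjusted p = 0.00631). Rpl41, the smallest ribosomal protein, and Rpl39, which lines the exit tunnel, rose by log2 0.54 (adjusted p = 0.0076) and 0.59 (adjusted p = 0.007). Rps3, at the mRNA entry site, rose by log2 0.31 (adjusted p = 0.0344), and Rpl13a by 0.52 (adjusted p = 0.0306). Both of these calls ended in limma without the variance trend (adjusted p = 0.107 and 0.0534). They also ended without any one of the wild type or Irf2 KO libraries.

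Several well-known members did not pass the test in Irf2 KO. Rps6, the substrate of S6 kinase, was 10.66 and 10.62 log2 CPM in wild type and 10.85 and 10.88 in Irf2 KO (0.23 ± 0.09, adjusted p = 0.0916). Rps19 and Rps14, small subunit proteins whose human counterparts are linked to anaemia, gave 0.23 and 0.25 (adjusted p = 0.102 for each). Rpl3, Rpl10 and Rps4x gave changes of 0.20, 0.21 and 0.22. Rpsa, also known as the laminin receptor, was 10.49 and 10.71 in wild type and 10.38 and 10.41 in Irf2 KO (-0.21 ± 0.13, adjusted p = 0.291). It was the one small subunit gene with a negative change in that comparison.

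The count of rises in Irf2 KO depended on the fit: 24 genes rose in limma without a trend of the prior variance and 26 after the GC and length correction, where the median change was 0.24. That correction ended the calls for Rpl22l1 (0.19, adjusted p = 0.2), Rpl39 (0.28, adjusted p = 0.119) and Rpl7 (0.14, adjusted p = 0.329). The count fell to 23 and 28 without wild type replicate 1 or 2, and to 21 and 23 without Irf2 KO replicate 1 or 2. Under every alternative and every left-out library, 11 genes rose, among them Rpl5, Rpl11, Rpl12, Rpl14, Rpl22, Rpl23, Rpl27, Rpl38, Rpl41 and Rps27l.

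**Figure D3:**
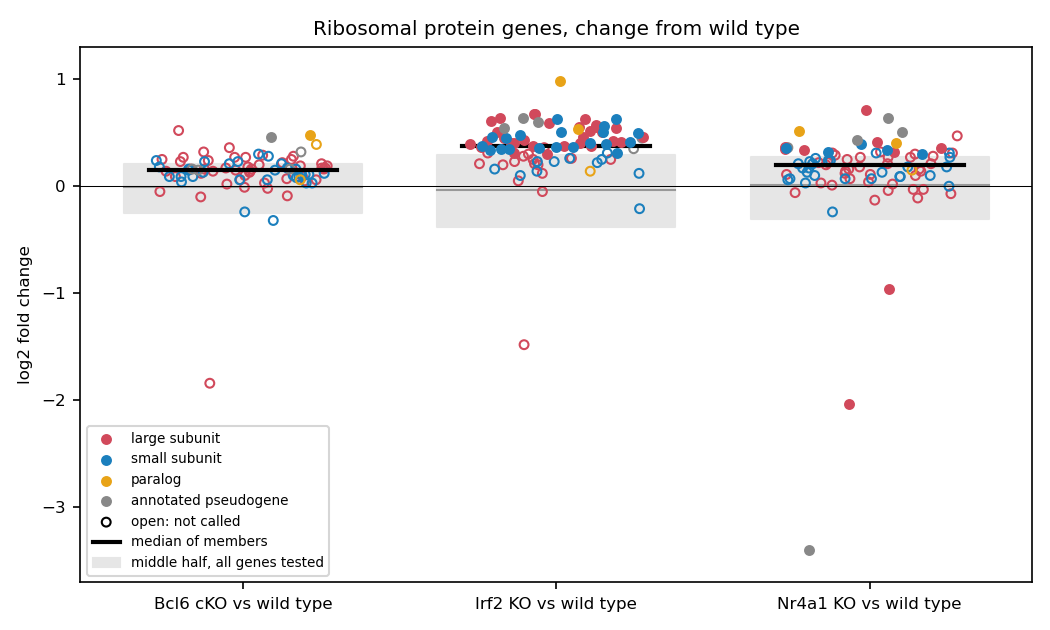
Log2 fold change from wild type (y axis) of each ribosomal protein gene in the 3 comparisons (x axis), coloured by class, filled where called by limma and open where not. Black lines are the medians of the 85 genes (0.15, 0.38 and 0.20) and grey bands run between the quartiles of all 12752 genes.

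Other genes changed in Irf2 KO along with these. Of 7 tested early myeloid progenitor markers, 6 rose and 1 fell, and their summed level was 3590 and 4570 CPM in Irf2 KO against 1700 and 1950 CPM in wild type. Mpo, the granule enzyme myeloperoxidase, rose by log2 0.94 (adjusted p = 0.00167), while the stem cell marker Cd34 fell by 1.60 (adjusted p = 0.00712). The 10 classical monocyte markers summed to 21600 and 26400 CPM in Irf2 KO against 35400 and 40900 CPM in wild type, with 5 lower and 0 higher. Neutrophil markers summed to 492 and 1130 CPM in Irf2 KO against 2140 and 1800 CPM in wild type (6 of 10 lower), and proliferation markers to 2020 and 1940 CPM against 2190 and 1890 CPM. In the other mutants the early myeloid markers summed to 1900 and 1990 CPM (Nr4a1 KO, 2 higher) and 2490 and 2150 CPM (labelled Bcl6 cKO, 1 higher). Proliferation markers summed to 1510 and 1430 CPM in Nr4a1 KO (3 of 6 lower) and 1730 and 1680 CPM with the label Bcl6 cKO (3 lower), where neutrophil markers summed to 1190 and 996 CPM (2 of 10 lower). Nkg7, the one T and NK cell marker tested, was higher in all 3 mutants (0.81 for Nr4a1 KO, 0.89 for Irf2 KO and 1.13 with the label Bcl6 cKO). In Irf2 KO erythroid markers summed to 2.62 and 4.87 CPM against 24.4 and 25.4 CPM in wild type (4 of 4 lower). B cell markers summed to 734 and 789 CPM in Irf2 KO against 690 and 784 CPM in wild type, though 3 of 5 tested were lower. Plasmacytoid dendritic markers summed to 395 and 470 CPM in Irf2 KO against 142 and 230 CPM in wild type, with 2 of 4 lower and 1 higher. In these libraries most of the plasmacytoid sum came from the higher marker. Most of the B cell sum came from a marker that was not called. Neither sum therefore reflects the markers that fell. Among all genes tested, 9.26% were higher and 12.3% lower in Irf2 KO. These shares were 3.94% and 11.2% in Nr4a1 KO, and 1.36% and 3.65% with the label Bcl6 cKO. No marker tested was at 0 reads in both libraries of a genotype. The part of these cells in the ribosomal protein changes was not tested.

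In Nr4a1 KO the median change was smaller than in Irf2 KO before correction for GC and length, and called changes ran both ways. By limma, 17 of 85 genes (20.0%) were higher than wild type, against 3.94% of all genes tested, and 3 (3.53%) were lower, against 11.2%. The median change was 0.20 log2, or 1.15-fold (0.13 log2 without wild type replicate 1), where that of all genes was 0.01. After the GC and length correction the medians were close, at 0.22 in Nr4a1 KO and 0.24 in Irf2 KO. The risers were 7 large subunit genes, 5 small subunit genes, 2 paralogs and 3 of the pseudogene-classed members. In 62 genes both Nr4a1 KO libraries lay above both wild type libraries, as they did in 27.9% of all genes. All 3 mutants were compared with the same wild type libraries, so the comparisons are not independent of each other.

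Rpl35, a large subunit protein at the tunnel exit, had the largest rise in Nr4a1 KO. It was 8.85 and 8.66 log2 CPM in wild type and 9.48 and 9.46 in Nr4a1 KO, 1.64-fold higher (log2 change 0.71 ± 0.10, adjusted p = 0.00148), against 9.24 and 9.08 in Irf2 KO (0.40, adjusted p = 0.0212). Rpl22l1, at 6.15 and 6.30 in Nr4a1 KO, rose by 0.52 ± 0.10 (adjusted p = 0.0105), and Rpl9 by 0.41 (adjusted p = 0.0121). Rpl22 (8.41 and 8.46; 0.36, adjusted p = 0.0339), Rpl14 (10.78 in both; 0.37, adjusted p = 0.0149) and Rps27l (8.15 and 8.29; 0.40, adjusted p = 0.03) also rose. The Rps27l change was 0.06 (adjusted p = 0.684) after the GC and length correction, and that of Rpl22l1 was 0.11 (adjusted p = 0.484). Rpl11 rose by 0.32 (adjusted p = 0.04), and Rpl5, its partner, gave 0.31 (adjusted p = 0.0516). Of these rises in Nr4a1 KO, only that of Rpl35 passed the test whichever library was left out.

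The count of rises in Nr4a1 KO was less stable: 3 genes without either wild type library, 6 and 7 without Nr4a1 KO replicate 1 or 2, 11 without any one of the other libraries, 4 without the variance trend and 2 in a fit of the 2 groups alone. It was 30 after quantile normalization and 44 after median centring, which adds 0.13 to every log2 change in this comparison, 0.10 in Irf2 KO and 0.07 in the libraries labelled Bcl6 cKO.

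The acidic stalk of the large subunit, which recruits elongation factors, is built on Rplp0 and carries Rplp1 and Rplp2. Rplp2 was 10.04 and 10.28 log2 CPM in wild type, 10.04 and 10.26 in the libraries labelled Bcl6 cKO, 10.42 and 10.47 in Irf2 KO, and 9.15 and 9.25 in Nr4a1 KO. Both Nr4a1 KO libraries lay below all 6 others, and the fall from wild type was -0.96 ± 0.11 (adjusted p = 0.000692). Rplp1 was 9.83 and 10.04 in wild type and 9.85 and 9.76 in Nr4a1 KO (-0.13 ± 0.11, adjusted p = 0.469), and 10.35 and 10.38 in Irf2 KO (0.43 ± 0.11, adjusted p = 0.0265). Rplp0 (11.50 and 11.64 in wild type) lay between 11.36 and 11.65 in the other libraries, with no call in any comparison with wild type. In Irf2 KO Rplp2 gave 0.28 ± 0.11 (adjusted p = 0.106), with both libraries above both wild type libraries, and the Rplp1 call ended after the GC and length correction (0.24, adjusted p = 0.166) and without wild type replicate 1 (adjusted p = 0.137).

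Rps4l, classed as a transcribed processed pseudogene on chromosome 6, showed the largest change of all. It had 1071 and 827 reads in wild type, 1065 and 1402 in the libraries labelled Bcl6 cKO, 1176 and 1243 in Irf2 KO, and 74 and 87 in Nr4a1 KO. As log2 CPM these were 4.21 and 4.01, 4.11 and 4.75, 4.60 and 4.51, and 0.55 and 0.87. The fall in Nr4a1 KO was -3.40 ± 0.24 log2, a level 10.6-fold lower (adjusted p = 4.18e-05). Rps4x, the X-linked protein-coding gene of the same family, was 9.58 and 9.66 in wild type and 9.80 and 9.79 in Nr4a1 KO (0.17, adjusted p = 0.267). The calls for Rps4l, Rplp2, Rpl35 and Rpl32l in Nr4a1 KO held under every alternative and without any one library.

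**Figure D4:**
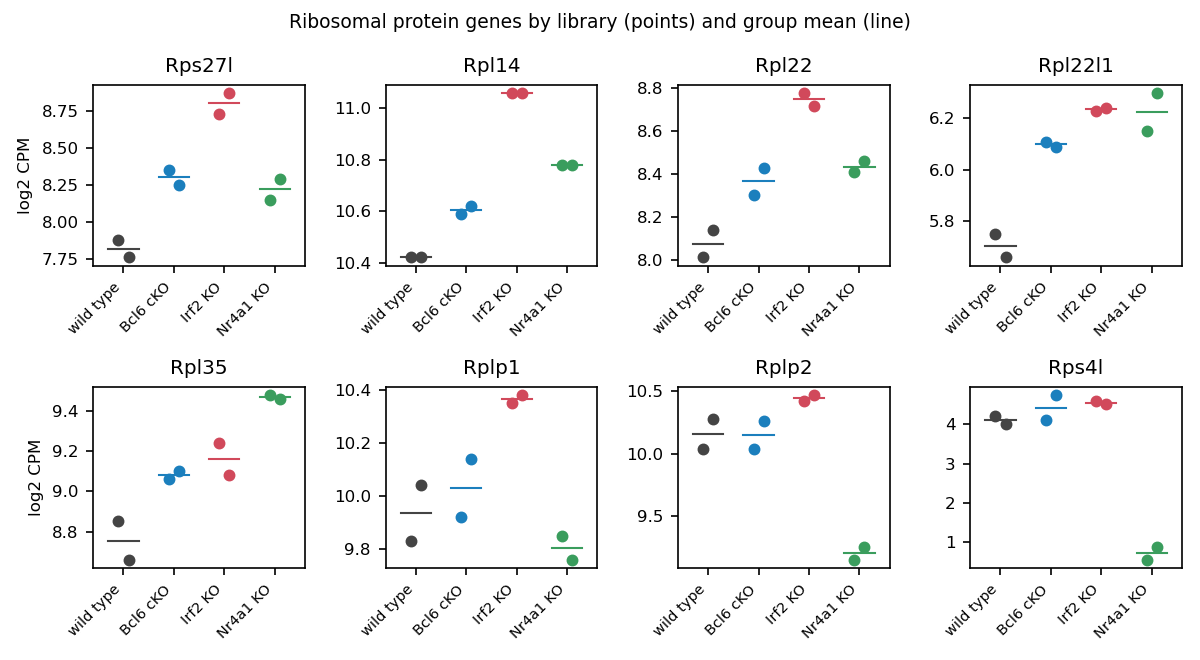
Log2 CPM (y axis, scaled separately in each panel and not from 0) of 8 ribosomal protein genes in each library (points) by genotype (x axis), with lines at group means. Rps27l, Rpl14 and Rpl22 are highest in Irf2 KO, Rpl35 is highest in Nr4a1 KO, and Rplp2 and Rps4l are lowest in Nr4a1 KO.

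Rpl13, a large subunit protein, was the member whose wild type libraries differed most. It was 10.97 log2 CPM in wild type replicate 1 and 9.13 in replicate 2, then 8.18 and 8.24 in the libraries labelled Bcl6 cKO, 8.55 and 8.59 in Irf2 KO and 7.83 and 8.21 in Nr4a1 KO. All mutant libraries lay below both wild type libraries. Against Nr4a1 KO the difference passed the test (-2.03 ± 0.46, adjusted p = 0.0195), and it did not for Irf2 KO (-1.48, adjusted p = 0.0508) or with the label Bcl6 cKO (-1.84, adjusted p = 0.0577). Without wild type replicate 1 the changes were -1.11 (adjusted p = 0.00521), -0.56 (adjusted p = 0.0613) and -0.92 (adjusted p = 0.0429) in the same order. The Nr4a1 KO call was lost without Nr4a1 KO replicate 1 (adjusted p = 0.058), without the variance trend (adjusted p = 0.06) and with the 2 groups alone (adjusted p = 0.0875), and without wild type replicate 2 the 3 changes were -2.95, -2.39 and -2.76 and all passed.

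Genes named as pseudogenes of Rpl13 were also highest in wild type replicate 1, at much lower levels. Rpl13-ps6 was 4.91 and 3.48 log2 CPM in wild type and 2.39 to 3.29 in the 6 mutant libraries, with a fall of -1.59 in Nr4a1 KO (adjusted p = 0.031). Rpl13-ps3 was 2.69 in wild type replicate 1 and 0.34 to 0.96 in all other libraries. Whether these reads came from the pseudogenes or from Rpl13 was not tested.

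**Figure D5:**
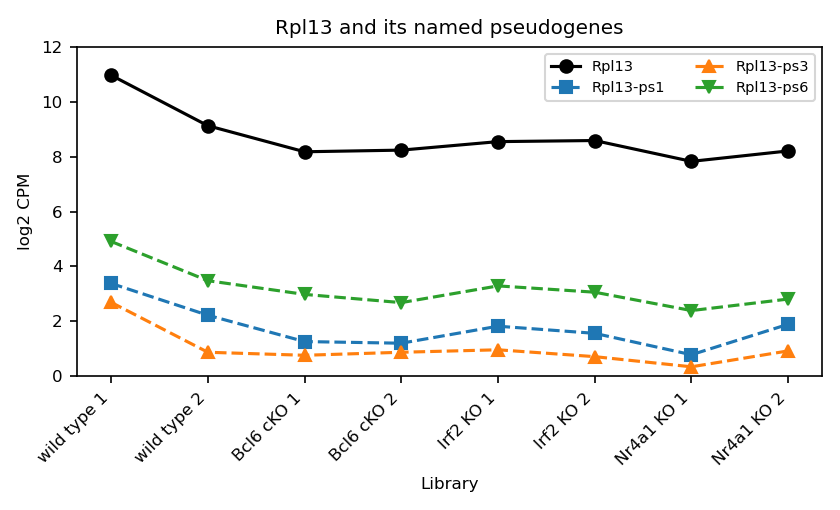
Log2 CPM (y axis) of Rpl13 and of 3 genes named as its pseudogenes in each library (x axis), with lines joining the libraries of one gene. All 4 genes are highest in wild type 1, where Rpl13 reaches 10.97.

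In the libraries labelled Bcl6 cKO few genes passed the test. By limma 2 of 85 (2.35%) were higher than wild type, against 1.36% of all genes tested, and 0 were lower, against 3.65%. An unadjusted limma p under 0.05, in either direction, was found in 25 of the 85 and in 2755 of all 12752 genes. The median change was 0.15 log2, or 1.11-fold (0.08 log2 without labelled Bcl6 cKO replicate 2 and 0.10 without wild type replicate 1). Changes were above 0 in 77 of 85 genes, and in 6290 of all 12752. In 45 genes both libraries labelled Bcl6 cKO lay above both wild type libraries, as they did in 26.8% of all genes. Rps27l (8.35 and 8.25 log2 CPM against 7.88 and 7.76; 0.48 ± 0.10, adjusted p = 0.0313) and Rpl32l (6.43 and 6.38 against 5.95 and 5.94; 0.46 ± 0.11, adjusted p = 0.0443) were the 2 called. Both calls ended without any one of the wild type or labelled Bcl6 cKO libraries, and after the GC and length correction (adjusted p = 0.301 and 0.129). The libraries of a genotype also differed: with the label Bcl6 cKO 78 of 85 genes were higher in replicate 2 (median difference 0.13 log2), and in wild type 66 were (0.10 log2).

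Set directly against each other, Irf2 KO exceeded Nr4a1 KO in 21 of 85 genes (24.7%) by limma, against 12.4% of all genes, and was lower in 0, against 9.94%. The median difference was 0.20 log2, and 0.06 log2 after the GC and length correction. Rps4l (3.85, adjusted p = 3.29e-05) and Rplp2 (1.24, adjusted p = 0.000205) led these, followed among the genes described above by Rps27l (0.58, adjusted p = 0.00435), Rplp1 (0.56, adjusted p = 0.00809) and Rpl12 (0.51, adjusted p = 0.00518). For Rpl35 the difference ran the other way and did not pass the test (-0.31, adjusted p = 0.0511). The count was 7 after the GC and length correction, 5 without the variance trend and 10 with the 2 groups alone. It was 7 and 5 without Irf2 KO replicate 1 or 2, and 7 and 11 without Nr4a1 KO replicate 1 or 2. The calls for these 5 genes held without any one library.

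The libraries labelled Bcl6 cKO were lower than Irf2 KO in 11 of 85 genes (12.9%), against 3.87% of all genes, and higher in 0, against 5.68%, with a median difference of -0.24 log2. That count was 0 without the variance trend, 0 without either labelled Bcl6 cKO library and 1 and 0 without Irf2 KO replicate 1 or 2. Against Nr4a1 KO they were higher in 2 genes (2.35%), Rplp2 and Rps4l, against 4.97% of all genes, and lower in 0, against 0.776%.

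Rises were also seen among the copies of these genes, which short reads cannot always tell from their parents. Of the 5 classed members, Rpl32l was 5.95 and 5.94 log2 CPM in wild type, 6.68 and 6.48 in Irf2 KO (0.64, adjusted p = 0.0058, but 0.29 and adjusted p = 0.0751 after the GC and length correction) and 6.54 and 6.64 in Nr4a1 KO (0.64, adjusted p = 0.00438). Rps3a3 rose by 0.54 in Irf2 KO (adjusted p = 0.0125) and by 0.51 in Nr4a1 KO (adjusted p = 0.0165), and Rps3a2 gave 0.35 (adjusted p = 0.0652) and 0.43 (adjusted p = 0.0427). Of 150 tested -ps genes, 66 (44.0%) were higher in Irf2 KO (median 0.59), against 9.26% of all genes. In Nr4a1 KO 39 (26.0%) were higher (median 0.40), against 3.94%, and 1 (0.667%) was lower, against 11.2%. In the libraries labelled Bcl6 cKO 4 (2.67%) were higher (median 0.24), against 1.36%. The share of -ps genes in the reads over all genes of the deposited table was 0.351% and 0.347% in wild type and 0.533% and 0.483% in Irf2 KO. Rpl14-ps1, at 7.63 and 7.48 in wild type and 8.41 and 8.28 in Irf2 KO, changed by 0.79 (adjusted p = 0.00219) beside 0.64 for Rpl14. Reads from a parent gene and its copies cannot be separated in these values.

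The ribosomal proteins of the mitochondria, a separate set of nuclear genes, were called in different directions. In Irf2 KO 33 of 76 were higher (43.4%, against 9.26% of all genes) and 1 was lower (1.32%, against 12.3%), with a median of 0.35. In Nr4a1 KO 6 were higher and 19 lower (lower in 11.2% of all genes; median 0.08). In the libraries labelled Bcl6 cKO 0 were higher (against 1.36% of all genes) and 4 lower (5.26%, against 3.65%), with a median of 0.10. Set against Nr4a1 KO directly, Irf2 KO was higher in 31 of the 76 (40.8%, against 12.4% of all genes), with a median of 0.28. Whether these changes differ from those of the cytosolic genes was not tested.

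Ribosome-bound proteins outside the name rule included Rpl36al, which rose in Irf2 KO (0.69, adjusted p = 0.0104), and Rack1, a scaffold of the small subunit, which also rose there (0.40, adjusted p = 0.0288). Fau, whose product is a small subunit protein made as a fusion, gave 0.02 (adjusted p = 0.923). None of these was called in the other mutants.

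Among 24 other mRNAs with a TOP motif, which encode mainly translation factors, 8 rose and 0 fell in Irf2 KO (median 0.20). For all genes tested, 9.26% rose and 12.3% fell there. The largest rises were in Npm1, a nucleolar chaperone of ribosome assembly (9.25 and 9.26 log2 CPM in wild type, 10.02 and 10.18 in Irf2 KO; 0.84, adjusted p = 0.00167), and in the elongation factor subunits Eef1g (0.64, adjusted p = 0.00554) and Eef1b2 (0.61, adjusted p = 0.00304). In Nr4a1 KO Eef1b2 (0.37, adjusted p = 0.0201) and the initiation factor Eif3e (0.36, adjusted p = 0.0244) rose. The chaperonin subunit Cct4 fell there (7.79 and 7.89 in wild type, 5.99 and 5.85 in Nr4a1 KO; -1.92, adjusted p = 2.02e-05). With the label Bcl6 cKO, Cct4 fell as well (6.97 and 7.18; -0.76, adjusted p = 0.00837).

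Of 20 regulators of ribosomal protein synthesis, Eif4ebp1, the mTORC1 target that blocks cap-dependent initiation, fell in all 3 mutants. It was 7.54 and 6.52 log2 CPM in wild type, 4.18 and 4.59 with the label Bcl6 cKO (-2.65, adjusted p = 0.00401), 5.13 and 5.48 in Irf2 KO (-1.73, adjusted p = 0.00649) and 3.72 and 3.75 in Nr4a1 KO (-3.29, adjusted p = 0.00016). All 6 mutant libraries lay below both wild type libraries. Larp1, which binds TOP mRNAs, rose in Irf2 KO (0.56, adjusted p = 0.014), and the S6 kinase gene Rps6kb2 fell there (-0.47, adjusted p = 0.0291). In Nr4a1 KO Myc, an activator of ribosomal protein gene transcription, fell from 4.77 and 4.84 to 2.19 and 3.0 (-2.21, adjusted p = 0.000567), and Tsc2, an mTORC1 inhibitor, fell by 0.52 (adjusted p = 0.0415).

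Chaperones and import factors of ribosomal proteins numbered 11, of which 4 rose and 2 fell in Irf2 KO. Over all genes tested, 9.26% rose and 12.3% fell there. The largest changes were in Pdcd2l, a relative of the Rps2 chaperone Pdcd2 (-1.04, adjusted p = 0.00589), Heatr3, which carries Rpl5 (0.99, adjusted p = 0.0132), and Tnpo1, an importin (0.57, adjusted p = 0.0126). In Nr4a1 KO Heatr3 rose (0.95, adjusted p = 0.0173) and Pdcd2l fell (-1.23, adjusted p = 0.00192), and with the label Bcl6 cKO Pdcd2l fell (-1.37, adjusted p = 0.00589). Of 8 genes of the ribosomal stress checkpoint, 0 were called in Irf2 KO. Among all genes tested, 11.2% fell in Nr4a1 KO and 3.65% with the label Bcl6 cKO. In Nr4a1 KO Bax (-0.77, adjusted p = 0.00112), Cdkn1a (-0.70, adjusted p = 0.0294) and Trp53 (-0.33, adjusted p = 0.0416) fell, and Bax also fell with the label Bcl6 cKO (-0.47, adjusted p = 0.0329).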

How the data were processed

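RNA-seq libraries of 8 samples were made, per the labels' protocols, with the SMARTer Ultra Low RNA kit. Tools listed in the submitters' processing notes are STAR, featureCounts of Subread, Salmon, bcl2fastq and limma, with build mm10 and no order of steps. The deposited table gave log2 CPM per library, which the authors made by adding 0.5 to the reads and 1 to the scaled total of the library. Undoing this formula gave reads within 0.01 of whole numbers. The authors' p-values and log2 fold changes against wild type, per the file headers, were used only as an alternative.

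Of 13789 rows, 45 repeats were left out. The 12752 genes with a mean log2 CPM of at least 0 entered the test of limma 3.58.1 (R 4.3.3; means of 4 groups, trended empirical Bayes, 4 residual and 4.66 prior degrees of freedom), with Benjamini-Hochberg adjustment over all genes of a comparison. The fit was also run on simulated data, drawn as independent normal values around the wild type means. Such data cannot check how the fit handles related genes or outlying libraries. Positions, lengths, GC and snoRNA genes came from GENCODE M21, promoters from RefSeq GRCm38.p6. Mean and SD are not printed for pairs of libraries, whose values are given.

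Named genes were the 6 largest rises and falls per comparison among called, non-overlapping genes, genes of fixed roles, paralog pairs, and called genes of the pathway lists (3 where over 5 were called). Rps10, Rpl24, Rps29, Rpl14-ps1, the Rpl13 pseudogenes, Mpo, Cd34, Nkg7 and the genes of calls held under every alternative were named after their values were seen. Members and lists were chosen with earlier results of these data known. Values of some single genes are not reported here, though the counts include them.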

Additional observations from a re-analysis of the deposited data

Results flagged for a closer look

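Among 85 ribosomal protein genes, 3 differences between mutants passed limma's test of the difference itself and are given again here because the genes' changes from wild type had opposite signs. Rplp2 was 1.24 log2 higher in Irf2 KO than in Nr4a1 KO. Rps4l was 3.85 log2 higher in Irf2 KO, and 3.72 log2 higher in the libraries labelled Bcl6 cKO, than in Nr4a1 KO. Against wild type, only the falls of these genes in Nr4a1 KO were called. The changes of Rplp2 (0.28) and Rps4l (0.45) in Irf2 KO were not, nor was that of Rps4l (0.32) with the label Bcl6 cKO. Groups of 2 libraries were too small for a check for outlying libraries.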

How the results depend on the processing

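Of 1632 single-gene values under an alternative, 1467 stayed on their side of the threshold, 119 were no longer past it and 46 newly passed it; 19 changed sign, of which 0 were called. The medians of the 85 genes kept their sign against wild type, and that of the libraries labelled Bcl6 cKO against Nr4a1 KO turned from -0.05 to 0.03 without labelled Bcl6 cKO replicate 1. The median of Irf2 KO against Nr4a1 KO fell from 0.20 to 0.06 after the GC and length correction. Genes higher than wild type in the libraries labelled Bcl6 cKO numbered 2, and 0 without the variance trend and after the GC and length correction, 4 after median centring and 1 with the replicate block. The fit without the trend gave 24 higher in Irf2 KO (55 in the report), 4 in Nr4a1 KO (17), 5 in Irf2 KO against Nr4a1 KO (21), 0 lower in the libraries labelled Bcl6 cKO than in Irf2 KO (11), and 9 differing among genotypes (42). The GC and length correction gave 26 higher in Irf2 KO, 7 higher and 3 lower in Irf2 KO against Nr4a1 KO, 1 lower in the libraries labelled Bcl6 cKO than in Nr4a1 KO and 21 differing among genotypes. Median centring gave 44 higher in Nr4a1 KO, 69 differing among genotypes, and 1 lower in Irf2 KO, and in the libraries labelled Bcl6 cKO, than in Nr4a1 KO. Quantile normalization gave 30 higher in Nr4a1 KO and 2 lower in Irf2 KO than in Nr4a1 KO. With only the 2 groups compared, 2 were higher in Nr4a1 KO and 10 in Irf2 KO against Nr4a1 KO. The authors' deposited table called 1 gene lower in Irf2 KO and 1 in the libraries labelled Bcl6 cKO, against wild type. Voom on the recovered reads gave 1 lower in Irf2 KO, and in the libraries labelled Bcl6 cKO, than in Nr4a1 KO. The cause was not tested.

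Over all genes tested, deviations of same-numbered libraries from their genotype means correlated at -0.00287 to 0.183 between genotypes. With 2 libraries per genotype and no batch in the labels, these values cannot decide whether the numbers pair the libraries. With the replicate block, 1 gene was lower in Irf2 KO, and in the libraries labelled Bcl6 cKO, than in Nr4a1 KO.

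Leaving out 1 library gave 21 to 56 higher in Irf2 KO, 3 to 11 higher and 2 to 3 lower in Nr4a1 KO, 0 to 2 higher and 0 to 1 lower in the libraries labelled Bcl6 cKO, 0 to 1 lower in Irf2 KO, 5 to 19 higher in Irf2 KO against Nr4a1 KO, 0 to 12 lower in the libraries labelled Bcl6 cKO against Irf2 KO, and 16 to 40 differing among genotypes. A group left with 1 library was assumed to vary like the others. Rps10 and Rpl24 had few reads, 88 to 220 per library, and the cause was not tested.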

Other observations

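Introns of ribosomal protein genes often hold small nucleolar RNAs, which guide the modification of ribosomal RNA. In GENCODE M21, 30 of the 80 protein-coding genes (37.5%) held 58 annotated snoRNA genes within their bounds. The median change in Irf2 KO was 0.36 log2 in these 30 hosts (18 called higher) and 0.38 log2 in the other 50 (34 called higher). In Nr4a1 KO it was 0.13 log2 (3 called higher) and 0.21 log2 (11 called higher). Among all genes tested, 9.26% were called higher in Irf2 KO and 3.94% in Nr4a1 KO. The difference between hosts and the rest was not tested.

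Among the 80 protein-coding genes, the change in Irf2 KO was larger in genes of lower mean level by Spearman's rho (-0.45, and -0.03 over 12740 genes). Pearson's r for the 80 was -0.14. The same rho was -0.37 with the label Bcl6 cKO and -0.07 in Nr4a1 KO. The change in Nr4a1 KO was larger in genes of lower GC content (rho -0.40 and r -0.30, and rho -0.35 over 12740 genes). These correlations are across genes of the same libraries, which are not independent replicates.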
